A study of Homo sapiens with 4 samples.

Results

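The circadian clock is a transcriptional feedback loop present in nearly every human cell. CLOCK and ARNTL (also called BMAL1) bind E-box sequences as a pair and switch on the PER and CRY genes, whose proteins return to the nucleus and block that pair, while NR1D1 represses ARNTL in a second loop. BHLHE40 and BHLHE41 (also called DEC1 and DEC2) occupy E-boxes in competition with CLOCK and ARNTL, and both are known as targets of hypoxia-inducible factors, the transcription factors that respond to low oxygen. These 10 genes, CLOCK, ARNTL, PER1, PER2, PER3, CRY1, CRY2, NR1D1, BHLHE40 and BHLHE41, were taken by name from a count table of 56306 gene rows, and each had a row. The measurements are bulk RNAseq of MV3 cells, an established line of highly metastatic human melanoma that carries the nuclear marker H2B-GFP in both zones. Spheroids of 50000 cells grew in collagen I and were dissected on day 2, first the core with a punch of 1 mm and then the invasion zone around it with one of 3 mm, to give libraries 1 and 2 of each zone. The paper warns that the cut was vertical, so invading cells above and below the core may remain in the core sample. All libraries came from a single time point, so the values give levels and not the phase or amplitude of a rhythm. In such bulk samples, fewer cells of a type and less RNA per cell cannot be told apart.

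BHLHE40 and BHLHE41 set the zones apart most among the 10 genes: mean BHLHE40 was 5.80-fold and mean BHLHE41 2.35-fold higher in the core than in the invasion zone. CRY1 and CLOCK lay higher in both invasion zone libraries, by 1.51-fold and 1.29-fold on the means. ARNTL and CRY2 lay slightly lower in both, and PER1, PER2, PER3 and NR1D1 overlapped between the zones. The test across all genes had 2 libraries per zone and no term for the replicate number (1 or 2). It called 0 of the 10, and 0% of the genes tested in either direction. With that term, BHLHE40 and BHLHE41 were called lower in the invasion zone, where 7.06% of all genes were called lower and 3.41% higher. Values are normalized CPM, counts brought to a common library size with TMM scaling factors, unless TPM is named. The test was the quasi-likelihood test of edgeR over 15529 genes with enough counts, with the Benjamini-Hochberg adjustment, and a call required both an adjusted p under 0.05 and at least a 2-fold change. Log2 fold changes are the invasion zone over the core, each with the standard error (SE) implied by that test.

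Depth followed the replicate number, with 36363358 and 37591782 counts in the replicate 1 libraries of core and invasion zone and 14983135 and 11789243 in those of replicate 2, and the file's library numbers also run in sequence within a replicate number. Zone differences are therefore also given within each replicate number. Markers of the melanocyte lineage were at or near 0 (SOX10 and TYR at 0 counts in all libraries, MITF at no more than 3.37 CPM), while AXL, SOX9 and VIM were well expressed, so of the defining markers of pigment cells under the label melanoma some were at 0 and the others low. Of 8 markers of other cell types, 7 lay below the count filter, and PECAM1 was at 18.1 and 7.43 CPM in the core and 5.23 and 0.926 CPM in the invasion zone.

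The promoter sequences below show the E-box, the element through which CLOCK and ARNTL act and which BHLHE40 and BHLHE41 also bind. They are those of the 3 members with its canonical form close to a RefSeq start, and that of CRY1 for comparison. CRY1 was the member with the highest log2 fold change. Each sequence is the 250 bases before the RefSeq gene start on GRCh38.p14, written 5′ to 3′ in the direction of the gene. Capitals mark CACGTG, the canonical E-box, and ACGTG or GCGTG on either strand, the core of the element bound by hypoxia-inducible factors. Every CACGTG also contains ACGTG on both strands.
BHLHE40: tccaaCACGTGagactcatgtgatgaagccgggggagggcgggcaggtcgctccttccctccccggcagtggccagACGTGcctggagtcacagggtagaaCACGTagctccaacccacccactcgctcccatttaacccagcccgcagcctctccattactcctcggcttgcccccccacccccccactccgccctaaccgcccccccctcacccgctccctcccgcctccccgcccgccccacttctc
BHLHE41: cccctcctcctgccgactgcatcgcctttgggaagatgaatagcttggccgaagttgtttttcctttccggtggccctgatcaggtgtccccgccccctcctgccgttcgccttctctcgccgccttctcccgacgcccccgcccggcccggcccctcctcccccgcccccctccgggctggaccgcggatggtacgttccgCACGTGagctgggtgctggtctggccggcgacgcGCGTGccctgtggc
PER1: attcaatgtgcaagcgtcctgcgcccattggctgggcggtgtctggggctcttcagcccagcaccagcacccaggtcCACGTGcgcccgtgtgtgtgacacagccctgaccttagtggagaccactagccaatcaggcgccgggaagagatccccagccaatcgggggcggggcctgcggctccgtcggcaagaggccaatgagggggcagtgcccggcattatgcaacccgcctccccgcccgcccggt
CRY1: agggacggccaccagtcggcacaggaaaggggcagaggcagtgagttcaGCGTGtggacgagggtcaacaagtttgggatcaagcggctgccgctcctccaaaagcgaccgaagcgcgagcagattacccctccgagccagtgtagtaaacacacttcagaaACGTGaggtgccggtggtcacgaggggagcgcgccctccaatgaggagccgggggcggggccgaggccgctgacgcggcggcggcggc

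The BHLHE40 stretch lies at chr3:4979187-4979436 on the plus strand, with the E-box at position -245 from the gene start and further ACGTG cores at -174 and, on the opposite strand, -149. The BHLHE41 stretch lies at chr12:26125038-26125287 on the minus strand, with the E-box at -48 and a GCGTG at -14. The PER1 stretch (chr17:8152405-8152654, minus strand) has its E-box at -173, and the CRY1 stretch (chr12:107093550-107093799, minus strand) has a GCGTG at -201 and an ACGTG at -88 and no CACGTG. The 10 genes have 14 RefSeq windows reaching from 250 bases before to 50 bases after a start. CACGTG was found in 3 of the 14 (21.4%), against 7.26% of all 35116 windows, and an ACGTG or GCGTG in 11 of the 14 (78.6%), against 48.4%. Every member except ARNTL had an ACGTG or GCGTG in a window, including PER2, PER3 and NR1D1, whose levels overlapped between the zones. The background windows were not matched for base composition. The windows are not independent, since PER3 has overlapping windows whose GCGTG matches are the same sites. The D-box letters TTATGTAA or TTATGCAA, bound by DBP, TEF and NFIL3, were in 2 windows (14.3%, against 1.71%), 1 of PER1 and 1 of PER3, and AGGTCA, the half-site bound by NR1D1 and the ROR receptors, was in 4 (28.6%, against 13.8%). Both strands were searched, but other forms of the E-box and sites outside these windows were not. These are letter matches and not measured binding.

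Among the repressors that respond to low oxygen, BHLHE40 (ENSG00000134107, chromosome 3, 4979437 to 4985323, GRCh38 as for all gene positions given) was at 67.6 and 72.3 CPM in the core and at 16.9 and 7.24 CPM in the invasion zone. Both invasion zone libraries were far below both core libraries, and the zones did not come near each other. The core libraries were close to each other, at 70.0 ± 3.31 CPM (SD, n = 2), whereas the invasion zone libraries differed from each other, at 12.1 ± 6.83 CPM. The core exceeded the invasion zone 4.0-fold within replicate 1 and 9.94-fold within replicate 2. The log2 fold change was -2.50 (SE 0.39), and only 0.882% of the genes tested had a value this low or lower. The edgeR test gave an unadjusted p of 0.00109 and an adjusted p of 0.128, above the threshold. BHLHE40 shares 451 of its 3516 exonic bases with BHLHE40-AS1 on the opposite strand, and because the strand setting of the counting is not given in the sources used here, reads from the pair cannot be told apart there.

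BHLHE41 (ENSG00000123095, chromosome 12, 26120030 to 26125037) was at 5.37 and 6.77 CPM in the core and at 3.07 and 2.10 CPM in the invasion zone, from 192, 102, 115 and 25 counts. The zones did not overlap, as for BHLHE40, but the gap was smaller and the level low. The fold of core over invasion zone was 1.75 within replicate 1 and 3.17 within replicate 2, and the log2 fold change was -1.20 (SE 0.33, edgeR adjusted p = 0.144). For both genes the difference was thus larger within replicate 2, where the sequencing was shallower. BHLHE41 shares 162 of 3854 exonic bases with SSPN on the opposite strand. The ratio of BHLHE40 to BHLHE41 counts was 12.6 and 10.6 in the core and 5.48 and 3.39 in the invasion zone.

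Because the members include these hypoxia-responsive genes, 22 other known targets of hypoxia-inducible factors were read from the same test. Of the 21 tested, 21 had a negative log2 fold change with a median of -1.25, against -0.01 over all genes tested, and for 20 of them the invasion zone was below the core in every pairing of libraries, against 30.3% of all genes. EdgeR called 0 of the 21. An unadjusted p under 0.05 was given to 19 of them and to 3769 of all 15529 genes, and DESeq2 called 14 lower, against 3.44% of all genes. ENO1, LDHA and ALDOA, glycolytic enzymes and the most abundant of the list, had log2 fold changes of -0.70 (SE 0.22), -1.25 (SE 0.19) and -0.74 (SE 0.17). The summed level of the list was 28892 and 25849 CPM in the core and 16502 and 13754 CPM in the invasion zone. ENO1 alone made up 16379.4 and 13710.5 CPM of it in the core and 10530.5 and 7983.52 CPM in the invasion zone. The sum thus follows mainly ENO1. Any part of hypoxia in the BHLHE40 and BHLHE41 difference was not tested.

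**Figure D1:**
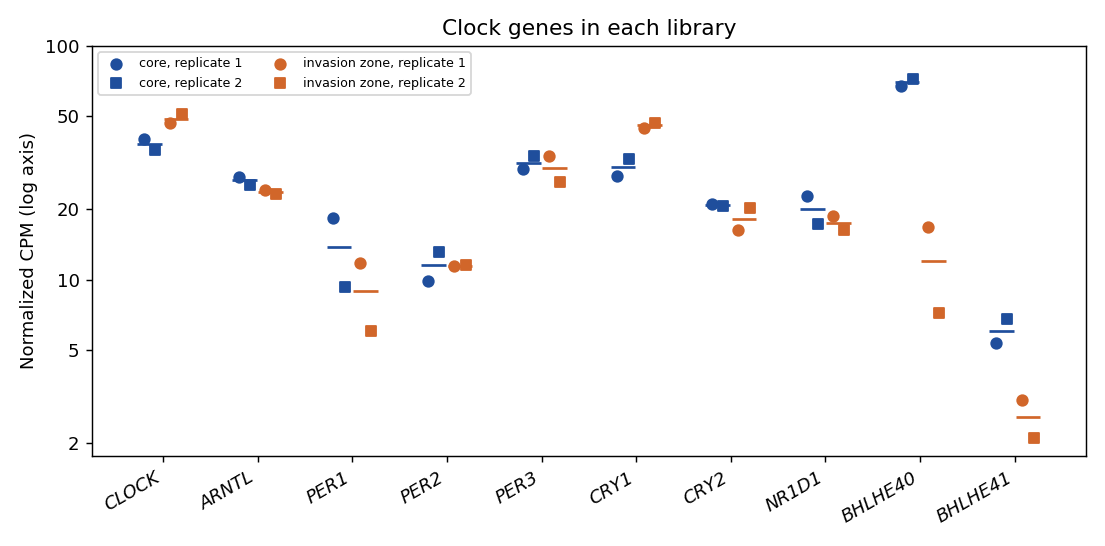
Normalized CPM of the 10 clock genes (log axis) in each of the 4 libraries, with circles for replicate 1, squares for replicate 2 and a bar at the mean of each zone (n = 2). BHLHE40 stands at 67.6 and 72.3 CPM in the core against 16.9 and 7.24 CPM in the invasion zone, while most other members stay within a narrow range.

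Of the activators, CLOCK (ENSG00000134852, chromosome 4, 55427903 to 55546909), the histone acetyltransferase partner of the pair, was at 40.1 and 35.9 CPM in the core and at 46.6 and 51.0 CPM in the invasion zone. Each invasion zone value exceeded each core value, at 48.8 ± 3.08 CPM against 38.0 ± 3.00 CPM (SD, n = 2), with a log2 fold change of 0.36 (SE 0.15, edgeR adjusted p = 0.221). ARNTL (ENSG00000133794, chromosome 11, 13276652 to 13387266) was at 27.6 and 25.5 CPM in the core and at 24.3 and 23.3 CPM in the invasion zone. The zones did not overlap here either, but the gap was small, with a log2 fold change of -0.16 (SE 0.16, edgeR adjusted p = 0.570). The partners of the activating pair thus stood on opposite sides of 0. The ratio of CLOCK to ARNTL counts was 1.45 and 1.40 in the core and 1.92 and 2.19 in the invasion zone.

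Among the PER genes, whose proteins carry the CRY repressors into the nucleus, PER1 (ENSG00000179094, chromosome 17, 8140472 to 8156506) was at 18.3 and 9.29 CPM in the core and at 11.8 and 6.06 CPM in the invasion zone. The zones overlapped, since the replicate 2 libraries of both zones lay far below those of replicate 1. Within a replicate number the core exceeded the invasion zone by nearly the same factor, 1.55-fold and 1.53-fold. The log2 fold change without a replicate term was -0.61 (SE 0.45, edgeR adjusted p = 0.451). With the replicate number as a term it was -0.62 (SE 0.16, edgeR adjusted p = 0.0151), under the 2-fold minimum of a call. PER1 is also known as an immediate-early and glucocorticoid-responsive gene.

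PER2 (ENSG00000132326, chromosome 2, 238244044 to 238290102) was at 9.92 and 13.2 CPM in the core and at 11.4 and 11.5 CPM in the invasion zone, so that both invasion zone values fell between the core values. Its log2 fold change was -0.003 (SE 0.23, edgeR adjusted p = 0.996), and it was positive within replicate 1 (0.21) and negative within replicate 2 (-0.19). PER3 (ENSG00000049246, chromosome 1, 7784291 to 7845177) was at 29.6 and 33.8 CPM in the core and at 33.8 and 26.3 CPM in the invasion zone, with a log2 fold change of -0.07 (SE 0.19, edgeR adjusted p = 0.855) and again opposite signs within the replicates (0.19 and -0.36). Opposite-strand genes, mainly UTS2, share 1350 of the 8128 exonic bases of PER3. Of the PER genes, PER1 had the same direction in both replicates and PER2 and PER3 did not.

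The cryptochromes, the proteins that directly inhibit CLOCK and ARNTL, differed from each other. CRY1 (ENSG00000008405, chromosome 12, 106991364 to 107093549) was at 27.8 and 32.8 CPM in the core and at 44.6 and 46.8 CPM in the invasion zone, with both invasion zone libraries clearly above both core libraries. Its log2 fold change of 0.60 (SE 0.16, edgeR unadjusted p = 0.0114, adjusted p = 0.137) was the highest of the 10, at 0.68 within replicate 1 and 0.51 within replicate 2. CRY2 (ENSG00000121671, chromosome 11, 45847118 to 45883248) was at 21.2 and 20.7 CPM in the core and at 16.3 and 20.2 CPM in the invasion zone. Both invasion zone libraries of CRY2 were below the core libraries, though that of replicate 2 was only just below, and the log2 fold change was -0.21 (SE 0.19, edgeR adjusted p = 0.544). The ratio of CRY1 to CRY2 counts was 1.31 and 1.58 in the core and 2.75 and 2.31 in the invasion zone.

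NR1D1 (ENSG00000126368, chromosome 17, 40092793 to 40100589), which encodes the nuclear receptor REV-ERB alpha, was at 22.7 and 17.3 CPM in the core and at 18.7 and 16.3 CPM in the invasion zone. The zones overlapped, with a log2 fold change of -0.19 (SE 0.21, edgeR adjusted p = 0.616) that was negative within both replicates (-0.28 and -0.08). NR1D1 shares 473 of its 2630 exonic bases with THRA on the opposite strand. Its counts are uncertain to that extent.

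Read against the background of all genes, 0 of the 10 were called by edgeR, as were 0% of all genes in either direction, with a smallest adjusted p of 0.128 over the whole table. An unadjusted p under 0.05 was given to 3 of the 10 (BHLHE40, BHLHE41 and CRY1) and to 3769 genes in all. With the 2-fold minimum these were 2 lower members, BHLHE40 and BHLHE41, against 5.85% of all genes lower and 2.92% higher. The zones were separated with the invasion zone lower for 4 of the 10 (ARNTL, CRY2, BHLHE40 and BHLHE41), against 30.3% of all genes, and with the invasion zone higher for 2 (CLOCK and CRY1), against 28.1%, so that separated zones were about as common among the members as among genes at large. The median log2 fold change of the 10 was -0.18, against -0.01 over all genes tested.

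The choice of test bears on these calls. DESeq2 on the same counts called 1 of the 10, BHLHE40, lower in the invasion zone (log2 fold change -2.51, adjusted p = 1.64e-08). It called 3.44% of all genes lower and 2.27% higher. These shares count as not called 3312 of the 15529 genes, to which DESeq2 gave no adjusted p, while all 10 members had one. BHLHE41 and CRY1 had DESeq2 adjusted p = 0.0581 and 0.059. With the replicate number as a term, edgeR called BHLHE40 (adjusted p = 0.000159) and BHLHE41 (adjusted p = 0.0128) lower, where 7.06% of all genes were called lower and 3.41% higher. Without the 2-fold minimum, that fit gave an adjusted p under 0.05 to 5 of the 10, against 6019 of all 15529 genes. Besides BHLHE40 and BHLHE41 these were CRY1 (edgeR adjusted p = 0.00224), PER1 (0.0151) and CLOCK (0.0323).

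**Figure D2:**
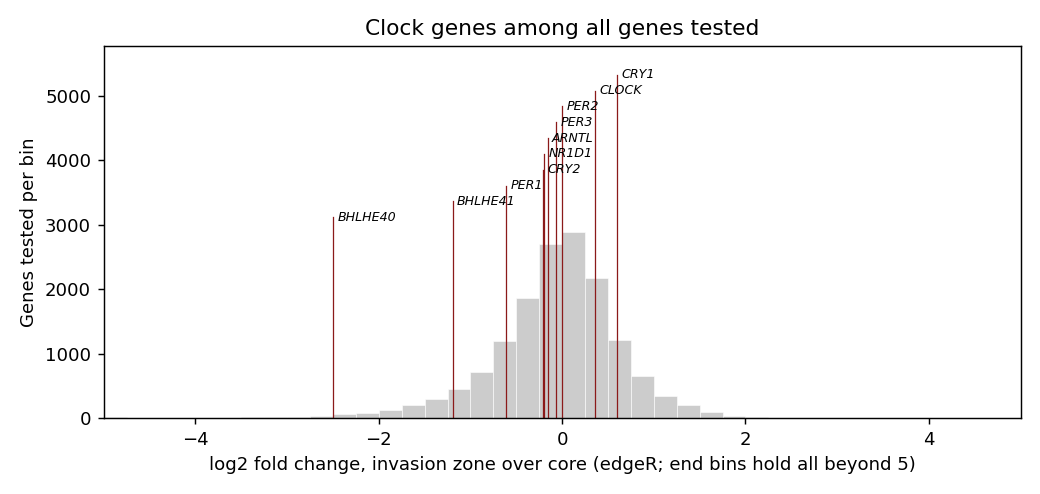
Histogram of the log2 fold changes (invasion zone over core, edgeR) of the 15529 genes tested, with a line at each of the 10 clock genes, whose heights differ only to separate the names. Apart from BHLHE40 at -2.50 and BHLHE41 at -1.20, the members lie between -0.61 and 0.60, in the bulk of the distribution.

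The level of a gene can be compared with that of another only per length, for which TPM was computed with the canonical transcript of each gene. That transcript has 2787 bases against 6934 exonic bases for ARNTL, and 10470 against 11533 for CLOCK. The order below thus rests on this choice of length, which the SD does not cover. In the core, BHLHE40 was the most abundant of the 10 at 52.2 ± 4.14 TPM (SD, n = 2), followed by CRY1 (23.9 ± 3.54), ARNTL (22.4 ± 0.532), NR1D1 (17.8 ± 2.84), CRY2 (11.9 ± 0.198), PER3 (11.7 ± 1.46), CLOCK (8.52 ± 0.400), PER1 (6.88 ± 2.98), PER2 (4.27 ± 0.991) and BHLHE41 (3.82 ± 0.744). The neighbours CRY1 and ARNTL, CRY2 and PER3, CLOCK and PER1, PER1 and PER2, and PER2 and BHLHE41 differed by less than the larger SD of the pair. In the invasion zone BHLHE40 stood in place 7 at 8.88 ± 4.98 TPM, and CRY1 was the most abundant at 35.6 ± 1.41 TPM, followed by ARNTL (19.9 ± 0.464), NR1D1 (15.5 ± 1.39), PER3 (11.0 ± 1.88), CLOCK (10.8 ± 0.752) and CRY2 (10.3 ± 1.63). Below BHLHE40 came PER1 (4.44 ± 2.0), PER2 (4.19 ± 0.0474) and BHLHE41 (1.61 ± 0.414). From PER3 down to PER2, each neighbour in this order differed from the next by less than the larger SD of the pair.

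A second set of 22 genes, listed for their place in the clock pathway, was read from the same test. Of these, 19 passed the count filter, HLF, RORB and FBXL21 being at or near 0. EdgeR called 0 of the 19, of which 5 had an unadjusted p under 0.05, against 3769 of all 15529 genes. DESeq2 called 2 higher and 2 lower, against 2.27% and 3.44% of all genes. The zones were separated with the invasion zone higher for 6 and lower for 7, near the 28.1% and 30.3% of all genes, and their median log2 fold change was -0.13.

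NPAS2, which can replace CLOCK, was at 170 ± 12.0 TPM in the core and 128 ± 31.5 TPM in the invasion zone, against 8.52 and 10.8 TPM for CLOCK. The TPM of NPAS2 rests on a canonical transcript of 4020 bases, against 12504 exonic bases. Its log2 fold change was -0.39 (SE 0.21), opposite in sign to that of CLOCK. ARNTL2, the paralog of ARNTL, was at 29.6 and 89.9 CPM in the core and at 104 and 206 CPM in the invasion zone. Its log2 fold change of 1.38 (SE 0.59, edgeR adjusted p = 0.226) came with a wide gap between replicates in each zone, and was 1.81 within replicate 1 and 1.19 within replicate 2. With the replicate number as a term ARNTL2 was called higher (1.50, edgeR adjusted p = 0.000113). Without a library it lay between 0.79 (without core replicate 1) and 2.39 (without core replicate 2). NR1D2, the paralog of NR1D1, had a log2 fold change of 0.30 (SE 0.15) and RORA, an activator of ARNTL, one of -0.61 (SE 0.47), which was -0.17 without invasion zone replicate 2 and -1.40 without invasion zone replicate 1.

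Among the output genes, DBP, a D-box activator classically driven by CLOCK and ARNTL, was at 64.0 and 61.4 CPM in the core and at 24.7 and 9.76 CPM in the invasion zone. Like BHLHE40, it was at close values in the core libraries and lower in both invasion zone libraries, with a log2 fold change of -1.83 (SE 0.42, edgeR adjusted p = 0.131). NFIL3, the D-box repressor, was at 96.6 and 65.3 CPM in the core and at 35.4 and 33.7 CPM in the invasion zone (log2 fold change -1.23, SE 0.22, edgeR adjusted p = 0.128). Both D-box factors were called lower by DESeq2, with adjusted p of 0.000291 and 0.000365, and by edgeR with the replicate number as a term (adjusted p = 0.000452 and 0.000199). TEF was at 13.5 and 16.6 CPM in the core and at 13.3 and 5.05 CPM in the invasion zone, a difference that came almost wholly from replicate 2 (log2 difference -0.03 within replicate 1 and -1.71 within replicate 2). Its log2 fold change of -0.68 (SE 0.45) was -0.18 without invasion zone replicate 2 and -1.57 without invasion zone replicate 1. CIART, a repressor of CLOCK and ARNTL, overlapped between the zones (log2 fold change -0.77, SE 0.49), at -0.09 without core replicate 2 and -1.24 without core replicate 1. DBP shares 661 of 6485 exonic bases with SPHK2 on the opposite strand.

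The 8 tested kinases, ubiquitin ligases and deubiquitinase that act on PER and CRY proteins stayed within a 2-fold difference, with log2 fold changes from -0.35 (CSNK1D, SE 0.16) to 0.18 (CSNK2A1, SE 0.15). CSNK1E (0.06, SE 0.14), GSK3B (0.11, SE 0.13), BTRC (-0.02, SE 0.15) and FBXW11 (0.02, SE 0.14) were near 0. USP2 (-0.13, SE 0.59) had at most 38 counts in a library. USP2 shares 1142 of 4523 exonic bases with USP2-AS1, and CSNK1E shares 1316 of 7098 with a readthrough gene on its own strand. TIMELESS and TIPIN, which work together at replication forks, were the tested genes of the list that DESeq2 called higher, at adjusted p of 0.0161 and 0.0154. TIMELESS was at 21.9 and 47.2 CPM in the core and at 70.0 and 87.7 CPM in the invasion zone, and TIPIN at 5.50 and 9.29 CPM and at 15.8 and 17.0 CPM. Their edgeR log2 fold changes were 1.20 (SE 0.38) and 1.16 (SE 0.30), with adjusted p of 0.157 and 0.135. With the replicate number as a term both were called (adjusted p = 0.000469 and 0.00147), and without core replicate 1 they were at 0.75 and 0.83. TIPIN shares 579 of 2739 exonic bases with the pseudogene RPL9P25.

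**Figure D3:**
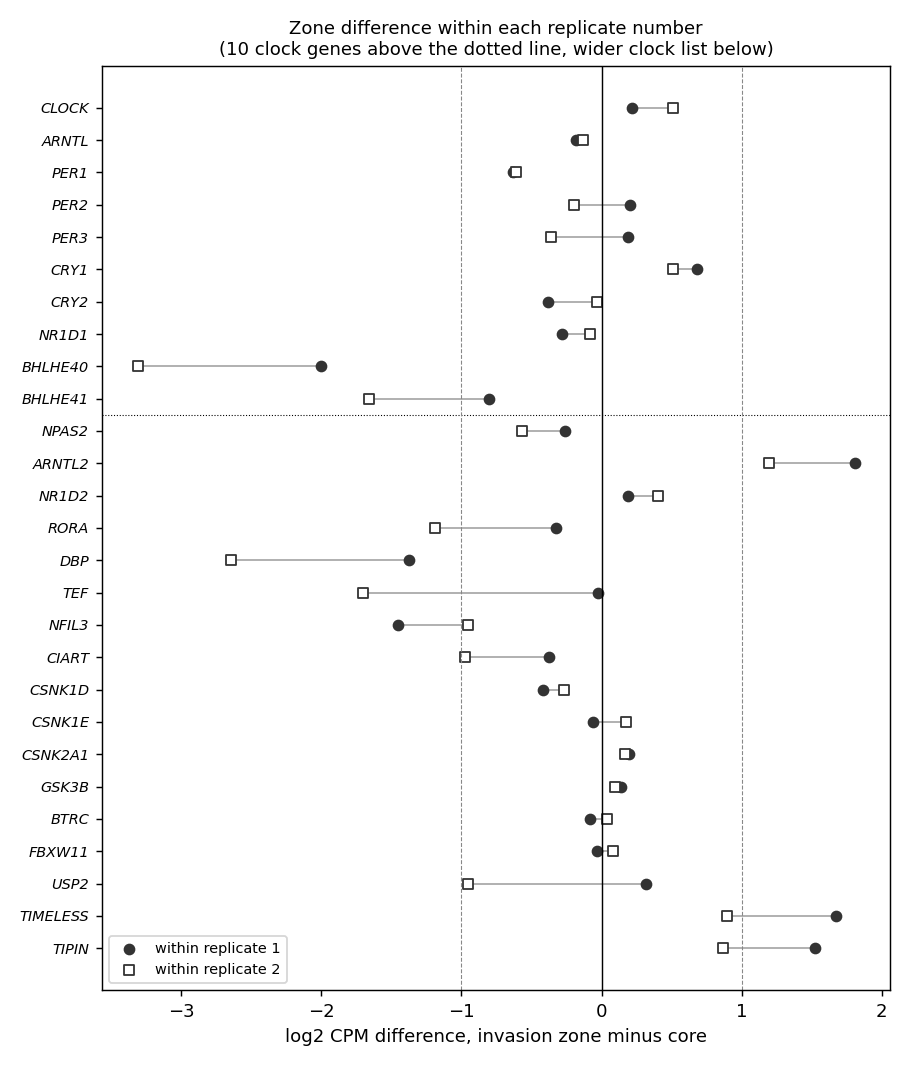
Log2 CPM difference of invasion zone minus core within replicate 1 (filled circles) and within replicate 2 (open squares) for the 10 clock genes and 17 tested genes of the wider list, with dashed lines at a 2-fold difference. BHLHE40 lies at -2.0 and -3.31 and DBP at -1.37 and -2.65, PER1 has nearly equal values in both replicates, and PER2 and PER3 lie on both sides of 0.

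Differences between partners within a library do not depend on how libraries are scaled. Of 8 partner pairs compared, the zones were separated for 6. The share over other gene pairs was not computed, and CLOCK, ARNTL and PER2 recur among the 8. Among single genes tested, separated zones were common, with the invasion zone lower for 30.3% and higher for 28.1%. An exact permutation test (two-sided) of 2 against 2 libraries gave p = 0.333 for each of the 6 separated pairs. This is the smallest p it can give, with a Benjamini-Hochberg adjusted p of 0.444. The log2 difference of BHLHE40 over BHLHE41 was 3.53 ± 0.17 (SD, n = 2) in the core and 2.11 ± 0.49 in the invasion zone. That of CRY1 over CRY2 was 0.53 ± 0.19 in the core and 1.33 ± 0.17 in the invasion zone. That of CLOCK over ARNTL was 0.51 ± 0.03 in the core and 1.03 ± 0.13 in the invasion zone. The balance with the paralogs also differed, by 0.78 for CLOCK over NPAS2, by -1.66 for ARNTL over ARNTL2 (-0.80 without core replicate 1 and -2.52 without core replicate 2) and by -0.48 for NR1D1 over NR1D2 (invasion zone minus core, log2). The zones overlapped for PER1 over PER2 and for PER2 over PER3.

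**Figure D4:**
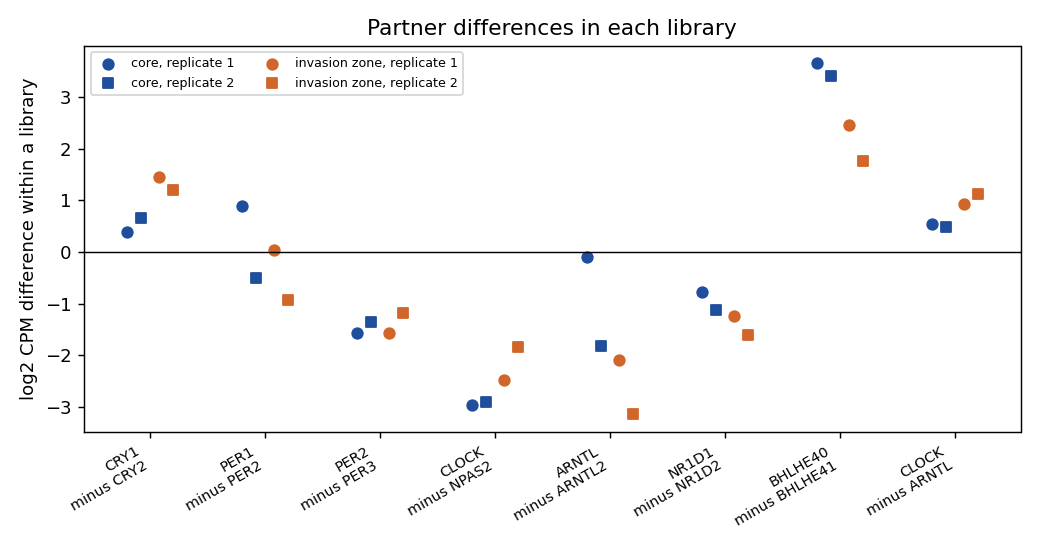
Log2 CPM difference between the genes of each of the 8 partner pairs in every library, with circles for replicate 1, squares for replicate 2, blue for the core and orange for the invasion zone. CRY1 minus CRY2 lies between 0.39 and 0.66 in the core and between 1.21 and 1.46 in the invasion zone, and BHLHE40 minus BHLHE41 is lower in both invasion zone libraries.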

How the data were processed

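Bulk RNAseq counts of 2 core and 2 invasion zone libraries were analysed, grouped by their titles. The authors deposited raw counts, made by filtering out ribosomal reads (Bowtie), aligning to hg38 (STAR) and counting unique alignments over genes (HTSeq-count), with versions, annotation and strandedness not given in the sources used here. Of 56306 rows, 2 repeats without counts were left out. Genes with 10 counts at the median library size in 2 libraries and 15 in total were kept (15529). Zones were compared across all genes with edgeR 4.0.16 (TMM, quasi-likelihood test, no replicate term) in R 4.3.3. DESeq2 1.42.0, limma 3.58.1 (voom), other scalings and filters, the replicate number as a block and each library left out were alternatives. The procedure was tested on simulated data, with and without a shift between replicate numbers. With that shift, recovery of the changed genes was required only of the fit with the replicate block, not of the reported fit. Differences within a library or replicate used log2 with 0.5 counts added. Positions and lengths came from GENCODE release 44 (GRCh38), which holds 98.1% of the identifiers. The members and lists were chosen with earlier results of these data known. Named genes are the members, the tested genes of the wider clock list (2 of which are not reported here) and the 3 most abundant genes of the hypoxia list. Nothing states that the libraries came from separate cultures, so p-values measure the spread between these libraries, which may be technical.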

Additional observations from a re-analysis of the deposited data

How the results depend on the processing

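The direction was kept under 14 alternatives by 7 of the 10 clock genes and by 16 of the 19 tested genes of the wider list. The others had log2 fold changes near 0. PER2 (-0.003 in the reported test) was 0.00747 with RLE scaling, 0.00839 in DESeq2, 0.0549 in limma voom, 0.0259 with the replicate block and 0.00501 with the bias-adjusted quasi-likelihood form, an alternative chosen after seeing the data. FBXW11 was -0.0110 with upper-quartile scaling and -0.00311 with at least 10 counts in every library, and USP2 was 0.0122 with the bias-adjusted form. The cause was not tested.

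BHLHE40 passed the threshold in DESeq2 (-2.51) and without a low-count filter (-2.50), where the cause was not tested, and at an unadjusted p (-2.50). BHLHE41 passed without a low-count filter (-1.19) and at an unadjusted p (-1.20). Lower and higher genes were 0 and 0 in edgeR. They numbered 534 and 353 in DESeq2, or 3.44% and 2.27% of the 15529 genes tested. Without a low-count filter they numbered 846 and 427 of 32869 genes. At an unadjusted p with the 2-fold minimum they numbered 909 and 454, or 5.85% and 2.92% of 15529. They were 0 and 0 with limma voom, RLE or upper-quartile scaling, 10 counts in every library, no fold minimum and the bias-adjusted form. Lower clock genes numbered 1 in DESeq2 and 2 without a filter or unadjusted. Lower and higher genes of the wider list numbered 2 and 2 in DESeq2, 3 and 3 without a filter and 3 and 2 unadjusted.

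With the replicate block the counts were 1097 lower and 530 higher genes, or 7.06% and 3.41% of 15529. There were 2 lower clock genes (BHLHE40 at -2.52, BHLHE41 at -1.15), and 3 lower and 3 higher genes of the wider list. Same-numbered libraries deviated together, with a correlation of 0.584 across genes over 2 pairs. The paper describes taking the invasion zone that corresponded to a punched core. Whether libraries of the same number hold such a pair, or shared a batch, is not stated. Within replicate 1 alone, PER1 was at -0.63.

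With each library left out, taking the remaining library of a zone to be as variable as the other zone, there were 125 to 1137 lower and 13 to 632 higher genes (fewest without core replicate 1, most lower without invasion zone replicate 1 and most higher without core replicate 2), 1 to 2 lower clock genes, and 2 to 4 lower and 0 to 3 higher genes of the wider list. The log2 fold change of BHLHE40 ranged from -3.27 to -2.05 and that of BHLHE41 from -1.52 to -0.98. PER1 ranged from -1.20 to -0.03, PER2 from -0.19 to 0.22, PER3 from -0.27 to 0.0940, NR1D1 from -0.37 to 0.0299, BTRC from -0.11 to 0.0846, FBXW11 from -0.0612 to 0.13 and USP2 from -0.98 to 0.28. NPAS2 ranged from -0.68 to -0.16, CRY2 from -0.37 to -0.05, CSNK1D from -0.48 to -0.19, and the change of CLOCK over NPAS2 from 0.45 to 1.10. The zone change of PER1 over PER2 ranged from -1.32 to 0.0673 and that of PER2 over PER3 from -0.0965 to 0.28.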
